A study of Mus musculus with 9 samples.

Results

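The genes described here belong to the cytosolic DNA sensing pathway and the Ifi200 family of mice, measured in endothelial cells (ECs) from healthy and metastatic lungs. Members were 9 genes (Ifi202b, Ifi203, Ifi204, Ifi205, Aim2, Cgas, Sting1, Tbk1 and Trex1), each represented by every probe set whose annotation names that gene and no other. On this rule 7 of the 9 had a probe set of their own, 10 probe sets in all, among 18193 genes and 34945 single-gene probe sets of the array. Ifi205 and Trex1 are accounted for but not analysed, because the 2 probe sets of Ifi205 also list other genes and the 1 probe set of Trex1 is shared with Atrip. The set was chosen with the steep rise of Ifi202b in metastatic lungs already known, so the values of the members against healthy lungs are a description and carry no test.

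ECs were sorted as CD31+ cells lacking CD45, CD11b, CD326, CD140a, CD140b and GFP, and their RNA was measured on Affymetrix Mouse Genome 430 2.0 arrays. All mice were of the NSG strain, which lacks mature T, B and NK cells, and the study's methods give them as female. Metastatic mice were 6 to 8 weeks old when MDA-MB-231-LM2, a lung-colonizing human breast cancer line, was injected into the tail vein, and lungs were taken on day 21. The 9 arrays form 3 groups of 3 biological replicates: healthy age-matched mice given control IgG (healthy IgG), metastatic mice given control IgG (metastasis IgG), and metastatic mice given the anti-VEGFA antibody B20.4.1.1 at 10 mg/kg, 2 times a week by intraperitoneal injection (metastasis anti-VEGF). Every mouse therefore received an antibody, every metastasis came from 1 cell line, and metastatic mice had been picked for a similar tumor load by bioluminescence. ECs of a whole lung were pooled in the sort, so cells close to and far from nodules are mixed, and in such bulk samples fewer cells of a type and less RNA per cell cannot be told apart.

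In mammalian cells, DNA that appears in the cytosol is bound by cGAS, which makes a cyclic dinucleotide that activates STING on the endoplasmic reticulum. STING recruits the kinase TBK1, which phosphorylates IRF3, and type I interferon and interferon-stimulated genes follow. AIM2 and the proteins of the Ifi200 family carry HIN domains that bind DNA directly. AIM2 assembles an inflammasome through its pyrin domain, whereas the protein of Ifi202b lacks a pyrin domain and is known to restrain AIM2, and the nuclease TREX1 degrades cytosolic DNA. In the mouse, Aim2 and the Ifi200 genes form a cluster on the distal part of chromosome 1, and several of them are themselves interferon-inducible.

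All positions are those of the RefSeq annotation of GRCm38.p6. Within the cluster, Aim2 lies at chr1:173349547-173466040, Ifi204 at chr1:173747293-173767069, Ifi203 at chr1:173920400-173942866, Ifi202b at chr1:173962569-173982844 and Ifi205 at chr1:174011998-174031755. Cgas (chr9:78430518-78443237), Trex1 (chr9:109057932-109059723) and Tbk1 (chr10:121546455-121586794) lie elsewhere. Promoters of 300 bases, from 250 before to 50 after an annotated start, were matched by symbol for 7 members (Ifi202b, Ifi203, Ifi205, Aim2, Cgas, Tbk1 and Trex1). They were searched on both strands for GAAA followed by any 2 bases and a second GAAA, the core of an interferon-response element, and for TTCNNNGAA, the core that STAT dimers bind. Across 32851 promoters of this length, 3.44% held the first motif and 8.3% the second, and the matches in the sequences shown do not overlap each other. The 3 promoters below, all on the minus strand within the cluster, are shown because only they held a match among those searched, and they are printed 5′ to 3′ in RefSeq sequence with matches in capitals.
Ifi202b (chr1:173982795-173983094): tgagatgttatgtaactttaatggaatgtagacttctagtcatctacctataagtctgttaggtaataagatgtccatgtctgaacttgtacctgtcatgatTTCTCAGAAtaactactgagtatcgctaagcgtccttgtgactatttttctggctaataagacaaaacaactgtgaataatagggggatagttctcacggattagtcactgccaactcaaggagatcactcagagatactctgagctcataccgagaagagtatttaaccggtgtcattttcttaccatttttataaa
Ifi203, second start (chr1:173942443-173942742): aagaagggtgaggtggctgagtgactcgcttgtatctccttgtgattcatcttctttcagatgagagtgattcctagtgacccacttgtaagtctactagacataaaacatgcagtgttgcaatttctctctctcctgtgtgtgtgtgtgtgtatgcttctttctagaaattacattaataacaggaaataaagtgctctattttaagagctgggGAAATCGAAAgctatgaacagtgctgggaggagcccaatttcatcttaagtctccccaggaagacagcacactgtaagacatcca
Ifi205 (chr1:174031706-174032005): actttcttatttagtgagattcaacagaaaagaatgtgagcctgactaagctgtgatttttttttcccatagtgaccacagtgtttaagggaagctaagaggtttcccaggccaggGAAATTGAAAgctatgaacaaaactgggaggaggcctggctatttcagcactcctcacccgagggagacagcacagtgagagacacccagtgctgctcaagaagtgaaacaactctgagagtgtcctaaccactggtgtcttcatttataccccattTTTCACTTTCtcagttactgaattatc

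In the Ifi202b promoter the capitals mark TTCTCAGAA, a match to the STAT core whose first base lies 148 bases before the start, and the interferon-response core was not found in this window. The second of the Ifi203 starts has GAAATCGAAA beginning 35 bases before it, whereas the window of the first start held neither motif. Ifi205 has 2 matches to the interferon-response core, GAAATTGAAA beginning 134 bases before the start and TTTCACTTTC, its reverse complement form, after the start. Aim2, Cgas, Tbk1 and Trex1 had no match to either motif in the windows searched. The matches are a description of letters in these windows of the reference assembly. No sequence of the NSG mice was read, so their promoters may differ from those printed.

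Values are log2 intensities after robust multi-array average (RMA) normalization, so a difference of 1 is a 2-fold change, and levels of different probe sets are not compared with each other. The median log2 value of all single-gene probe sets, 8.61, serves as a mark for dim signal. The lowest correlation of 2 arrays was 0.991 within a group and 0.977 between groups. The 15 endothelial markers had a mean log2 level of 12.8 to 12.9 in every array, and the defining markers Pecam1 and Cdh5 were high throughout. A gauge of RNA integrity, the signal at the 3′ end of beta-actin minus that at its 5′ end, ran from 0.61 to 0.62 in healthy IgG, 0.49 to 0.55 in metastasis IgG and 0.53 to 0.62 in metastasis anti-VEGF arrays, and its part in the results was not tested.

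Of the 7 measured members, Ifi202b, Ifi204 and Sting1 were higher in ECs of metastatic lungs than of healthy lungs, whether the mice had received IgG or anti-VEGF. Cgas was slightly higher, and the representative probe sets of Ifi203, Aim2 and Tbk1 lay within 0.1 log2 units of healthy lungs. By representative probe sets, no member differed between anti-VEGF and IgG in metastatic lungs beyond the spread of the replicates.

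**Figure D1:**
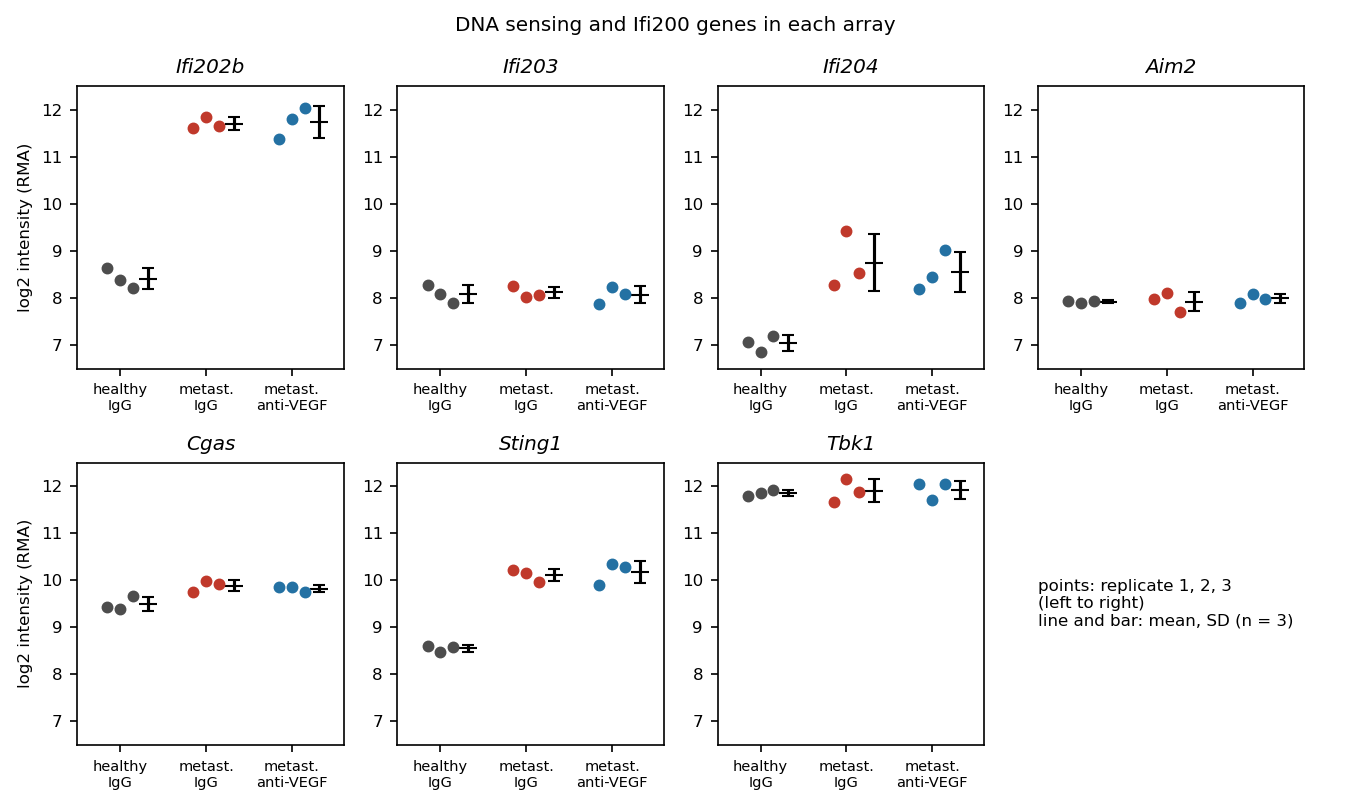
Log2 intensity (RMA) of the 7 measured members, 1 panel per gene with the same axis, in each of the 9 arrays; points are replicates 1 to 3 from left to right, and the line and bar beside them give the mean and SD (n = 3). Ifi202b, Ifi204 and Sting1 of all metastatic arrays lie above the healthy arrays, whereas the groups overlap in Ifi203, Aim2 and Tbk1.

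Among the HIN-domain DNA binders, Ifi202b stood out. Its log2 intensity was 8.64, 8.38 and 8.21 in the 3 healthy IgG arrays, 11.60, 11.85 and 11.65 in the metastasis IgG arrays, and 11.37, 11.80 and 12.03 in the metastasis anti-VEGF arrays. The lowest metastatic array thus lay well above the highest healthy array, and the anti-VEGF arrays reached past the IgG arrays at both ends. Metastasis IgG exceeded healthy IgG by 3.29 ± 0.12 log2 units (SE, n = 3 arrays per group), a 9.79-fold difference, and metastasis anti-VEGF exceeded healthy IgG by 3.32 ± 0.17, a 10.0-fold difference. In healthy ECs the probe set was close to the mark for dim signal, above it in 1 of 3 arrays, and in metastatic ECs above it in all 6. The suffix of this probe set denotes that its probes can match more than 1 transcript, and genes of the Ifi200 family share stretches of sequence, so signal from a relative cannot be told apart from that of Ifi202b.

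Ifi204, the mouse gene most often set beside human IFI16, followed the same order with more scatter. Its log2 intensity was 7.07, 6.86 and 7.18 in healthy IgG, 8.28, 9.43 and 8.53 in metastasis IgG, and 8.20, 8.45 and 9.02 in metastasis anti-VEGF arrays. No metastatic array overlapped a healthy one, but the spread within metastatic groups (SD 0.61 and 0.42) was the widest of the 7 members and only 2 of 9 arrays exceeded the mark for dim signal. The difference from healthy IgG was 1.71 ± 0.26 log2 units (3.26-fold) with IgG and 1.52 ± 0.20 (2.86-fold) with anti-VEGF.

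Ifi203 and Aim2 stayed dim in all 9 arrays, so these probe sets have little room to show a decrease and could also miss a rise. Ifi203 rests on 1 probe set, since 3 others also list other genes and were not used. Ifi203, another DNA-binding member of the cluster, ran from 7.88 to 8.28 in healthy IgG, 8.02 to 8.25 in metastasis IgG and 7.87 to 8.24 in metastasis anti-VEGF arrays. Aim2, the inflammasome sensor, gave 7.93, 7.89 and 7.94 in healthy IgG, 7.97, 8.10 and 7.70 in metastasis IgG, and 7.89, 8.09 and 7.99 in metastasis anti-VEGF arrays. In both genes the 3 groups overlapped. The log2 difference of metastasis IgG from healthy IgG was 0.03 ± 0.12 for Ifi203 and 0.00 ± 0.11 for Aim2, and that of metastasis anti-VEGF was -0.02 ± 0.13 and 0.07 ± 0.08.

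In the sensing pathway proper, Sting1 (chr18:35733678-35740554), the adaptor that receives the cGAS product, had the clearest difference. Its brighter probe set, which represents the gene, gave 8.60, 8.47 and 8.58 in healthy IgG, 10.21, 10.16 and 9.96 in metastasis IgG, and 9.90, 10.35 and 10.28 in metastasis anti-VEGF arrays. The second probe set repeated this with 8.29 to 8.43 in healthy IgG, 9.80 to 10.21 in metastasis IgG and 9.73 to 10.18 in metastasis anti-VEGF arrays. Neither probe set showed any overlap between healthy and metastatic arrays. The differences of metastasis IgG from healthy IgG were 1.56 ± 0.09 log2 units (2.94-fold) and 1.69 ± 0.12, and those of metastasis anti-VEGF were 1.63 ± 0.12 (3.09-fold) and 1.59 ± 0.12.

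Cgas, the sensor upstream of STING, had smaller differences on which its probe sets disagreed in size. The representative probe set gave 9.43, 9.39 and 9.66 in healthy IgG, 9.75, 9.99 and 9.91 in metastasis IgG, and 9.86, 9.86 and 9.74 in metastasis anti-VEGF arrays. The other probe set gave 8.80, 9.06 and 9.07 in healthy IgG, 9.49, 10.01 and 9.73 in metastasis IgG, and 9.27, 9.19 and 9.64 in metastasis anti-VEGF arrays. In both, every metastatic array exceeded every healthy one, although the closest arrays of the representative probe set stood at 9.66 and 9.74. Metastasis IgG exceeded healthy IgG by 0.39 ± 0.10 log2 units (1.31-fold) in the representative and 0.76 ± 0.14 in the other probe set, and metastasis anti-VEGF by 0.33 ± 0.09 and 0.39 ± 0.13.

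Tbk1, the kinase downstream of STING, was bright in all arrays. Its representative probe set ran from 11.78 to 11.92 in healthy IgG, 11.66 to 12.16 in metastasis IgG and 11.70 to 12.03 in metastasis anti-VEGF arrays, and the groups overlapped. The log2 differences from healthy IgG were 0.05 ± 0.12 with IgG and 0.07 ± 0.11 with anti-VEGF. A second probe set gave 11.22 to 11.28 in healthy IgG, 11.34 to 11.42 in metastasis IgG and 11.35 to 11.50 in metastasis anti-VEGF arrays, without overlap but with differences of only 0.12 ± 0.08 and 0.18 ± 0.08.

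Counted over genes, 3 of the 7 members (Ifi202b, Ifi204 and Sting1) passed an adjusted p of 0.05 as higher in metastasis IgG than in healthy IgG, where 5.55% of all genes did. In 4 of the 7, those 3 and Cgas, the groups did not overlap and the metastatic one was higher, as in 15.4% of all genes. Since the members were chosen with this contrast in view, these counts only describe them. For metastasis anti-VEGF against healthy IgG, which uses the same healthy arrays, the counts were again 3 of 7 (4.15% of all genes) and 4 of 7 (13.8%), with the same members in each. The median log2 difference of the members was 0.39 with IgG and 0.33 with anti-VEGF, beside 0.00 and -0.01 over all genes. Over single probe sets, 5 of 10 passed with IgG (4.43% of all single-gene probe sets) and 4 of 10 with anti-VEGF (3.32%).

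**Figure D2:**
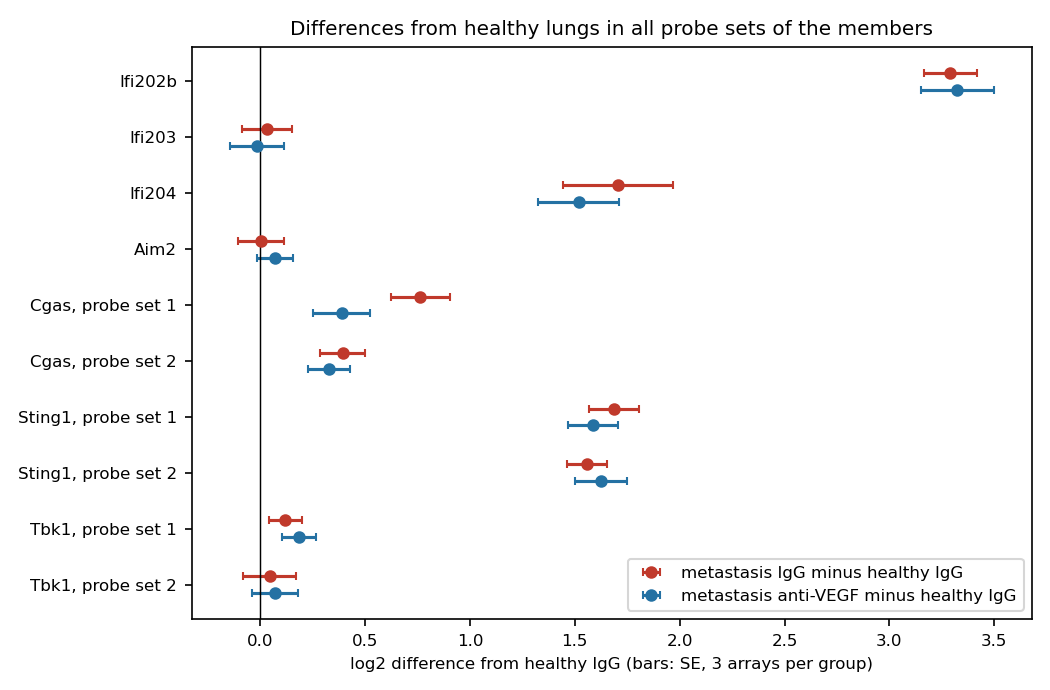
Log2 difference from healthy IgG for all 10 probe sets of the members, with red points for metastasis IgG and blue points for metastasis anti-VEGF and bars for the SE (3 arrays per group); probe set 2 is the one that represents Cgas, Sting1 and Tbk1. The pairs lie close together in Ifi202b (3.29 and 3.32) and both Sting1 probe sets, and apart in the first Cgas probe set (0.76 and 0.39).

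Blocking VEGF in metastatic lungs was compared with IgG by limma, on the same metastasis IgG arrays in which the rise of Ifi202b was known. This contrast, which is thus not independent of that choice, tested all 7 members. None passed (lowest adjusted p 0.915), none had an unadjusted p under 0.05, and the groups overlapped in all 7. Over all genes, 0.0% passed, 8.04% had an unadjusted p under 0.05, and 13.1% showed no overlap of the groups. The differences ran from -0.19 to 0.07 log2 units, with a median of 0.02 beside -0.01 over all genes. For Ifi202b the difference of anti-VEGF minus IgG was 0.03, with a 95% interval from -0.34 to 0.40. The interval of Sting1 ran from -0.23 to 0.37, that of Cgas from -0.28 to 0.15, and that of Tbk1 from -0.31 to 0.35. Those of the dim genes Ifi203 (-0.31 to 0.21) and Aim2 (-0.20 to 0.33) were similar in width, and Ifi204 was measured least precisely (-0.88 to 0.50). Changes within these intervals are compatible with the data from 3 arrays per group. Of the 10 probe sets, 1 had an unadjusted p under 0.05, as had 7.63% of all single-gene probe sets, and none passed the adjusted threshold (0.0% of all). It was the dimmer Cgas probe set, with a difference of -0.38 ± 0.16 (limma adjusted p = 0.648).

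The 5 genes whose profiles over the 9 arrays lay closest to that of Ifi202b were found by the root mean square difference of mean-centred log2 values. They were Rsad2, an antiviral enzyme (0.20), Clca3a1, a regulator of chloride channels (0.23), Vwa1, a matrix protein (0.28), Mx1, an antiviral GTPase (0.35), and Akr1b8, an aldo-keto reductase (0.36). Each of them was low in all 3 healthy arrays and high in all 6 metastatic arrays, for example Rsad2 with 9.22 to 9.36 and 12.23 to 12.58. Among the 5, Rsad2 and Mx1 are interferon-stimulated genes. The likeness rests on 9 arrays that share 1 step between healthy and metastatic lungs.

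Other genes of the pathway were grouped in 8 lists by role, and counts refer to the genes with a probe set of their own. Among 4 relatives of the Ifi200 cluster, Ifi209 and Ifi207 passed as higher in metastasis IgG than in healthy IgG, by 0.91 ± 0.16 and 0.58 ± 0.11 log2 units. Both were below the mark for dim signal, with group means of 6.70 to 7.60 for Ifi209 and 7.64 to 8.37 for Ifi207. Mndal differed by 0.60 and Ifi213 by 0.14, and neither passed, although a second Mndal probe set passed among single probe sets, at 0.70 ± 0.17. With anti-VEGF the same 2 genes passed against healthy IgG, at 0.81 ± 0.08 and 0.73 ± 0.09. The median of the 4 was 0.59 with IgG and 0.66 with anti-VEGF, which lies between the steep Ifi202b and the level Ifi203 and Aim2. Ifi207 no longer passed with IgG when healthy array 1, healthy array 2 or metastasis array 1 was left out (differences 0.54 to 0.58).

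Of 17 other DNA sensors and cofactors, 2 passed as higher with IgG and none as lower. Zbp1, which senses Z-form nucleic acids and is itself interferon-inducible, rose by 1.06 ± 0.09 log2 units with IgG and 1.06 ± 0.08 with anti-VEGF. Hmgb2, a chromatin protein that also binds cytosolic DNA, rose by 0.43 ± 0.10 with IgG, but its probe sets ran from 0.09 to 0.62 and it did not pass with anti-VEGF or once any 1 of 5 arrays was left out (all but metastasis array 3). The list median was 0.07 with IgG and 0.05 with anti-VEGF, near 0 as over all genes. The 17 partners of STING and TBK1 showed little, with 1 passing as higher with IgG, the ubiquitin ligase gene Dtx4 (0.38 ± 0.09), and none with anti-VEGF. Dtx4 failed in 5 of the 6 fits that left out an array, all but that without healthy array 3. Irf3, the transcription factor that TBK1 phosphorylates, had differences of -0.17 and -0.19 and did not pass. With anti-VEGF the smallest p values of this list belonged to Stim1 (0.30 ± 0.08, limma adjusted p = 0.0771, with probe sets from -0.10 to 0.30) and Surf4 (0.22 ± 0.08, limma adjusted p = 0.171), both regulators of STING trafficking.

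Genes that clear, edit or limit self nucleic acids, not all of them nucleases, gave 2 of 10 as higher with IgG. Adar, which edits double-stranded RNA, rose by 0.50 ± 0.10 log2 units, and Samhd1, which depletes deoxynucleotides, by 0.33 ± 0.08. With anti-VEGF only Samhd1 passed, at 0.50 ± 0.09. The probe sets of Samhd1 disagreed, from -0.08 to 0.33 with IgG and from -0.31 to 0.50 with anti-VEGF. Its call with IgG was lost without any 1 of the 6 arrays, and with anti-VEGF without healthy array 2 or anti-VEGF array 2, whereas, among the fits that left out 1 array, Adar lost its call only without healthy array 2. The list median was 0.18 with IgG and 0.13 with anti-VEGF.

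Genes of the inflammasome list, which holds partners of AIM2 and related genes such as Casp4 and Il1a, moved both ways. Of 8 genes, 2 passed as higher and 2 as lower with IgG, where 3.46% of all genes passed as lower (2.29% with anti-VEGF). Il1b, the cytokine that inflammasomes mature, rose by 0.81 ± 0.19 log2 units and Casp4, the caspase of the noncanonical pathway, by 0.59 ± 0.08. Pycard, the adaptor that AIM2 recruits, fell by 0.68 ± 0.10 and Il1a by 0.51 ± 0.11. Group means of Il1a (7.84 to 8.55) lay below the mark for dim signal. With anti-VEGF, Il1b (1.24 ± 0.20) and Casp4 (0.75 ± 0.08) passed as higher and Il1a (-0.71 ± 0.12) as lower than healthy IgG, while Pycard, at -0.38, did not pass. Calls of Il1b with IgG were lost without healthy array 3 or any 1 of the 3 metastasis arrays, and those of Il1a without any healthy array but the second or without metastasis array 1 or 3, and with anti-VEGF without healthy array 3.

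None of the 5 interferon genes measured (Ifnb1, Ifna1, Ifna2, Ifna4 and Ifng) passed in any comparison. Ifnb1, the beta interferon that STING signaling induces, had means of 7.13, 7.20 and 7.22 in healthy IgG, metastasis IgG and metastasis anti-VEGF, all below the mark for dim signal. Ifna1, Ifna2, Ifna4 and Ifng differed from healthy IgG by -0.12 to 0.08 log2 units in both comparisons. Of the 15 interferons, receptors and signaling genes, 2 passed with either treatment, Stat2 (0.64 ± 0.09 and 0.55 ± 0.09) and Irf9 (0.50 ± 0.08 and 0.55 ± 0.08), which are partners in the ISGF3 transcription factor. The list median was 0.04 with IgG and 0.08 with anti-VEGF.

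Interferon-stimulated genes were higher throughout. All 28 measured passed as higher with IgG and 27 with anti-VEGF, Oas3 at 0.37 being the exception. Their median difference was 1.22 log2 units with IgG and 1.28 with anti-VEGF, against 0.00 and -0.01 over all genes. The largest with IgG were Rsad2 (3.09 ± 0.10), the translation inhibitor gene Ifit2 (2.67 ± 0.15), Mx1 (2.64 ± 0.09) and Irf7 (2.08 ± 0.12), a transcription factor that amplifies interferon. With anti-VEGF they stood at 3.08 ± 0.09, 2.46 ± 0.12, 2.65 ± 0.10 and 2.11 ± 0.09. By representative probe sets, Ifi202b (3.29 with IgG) lay beyond all 28, although the probe sets of Rsad2 ran from 2.82 to 3.61, and Sting1 (1.56) and Ifi204 (1.71) lay above their median.

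Targets and subunits on the NF-kB arm of STING signaling were mixed, with 3 of 9 passing as higher with IgG. Cxcl9, a chemokine, rose by 1.26 ± 0.15 log2 units, although its second probe set gave 0.09, the cytokine gene Il6 by 0.80 ± 0.19 and the subunit gene Relb by 0.49 ± 0.08. With anti-VEGF, Cxcl9 (1.37 ± 0.15) and Relb (0.47 ± 0.07) passed. The median was 0.16 with IgG and 0.28 with anti-VEGF. The call of Il6 with IgG was lost without healthy array 1 or 2 or any 1 of the metastasis arrays. Group means of Cxcl9 (6.55 to 7.92) and Il6 (7.41 to 8.32) lay below the mark for dim signal.

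**Figure D3:**
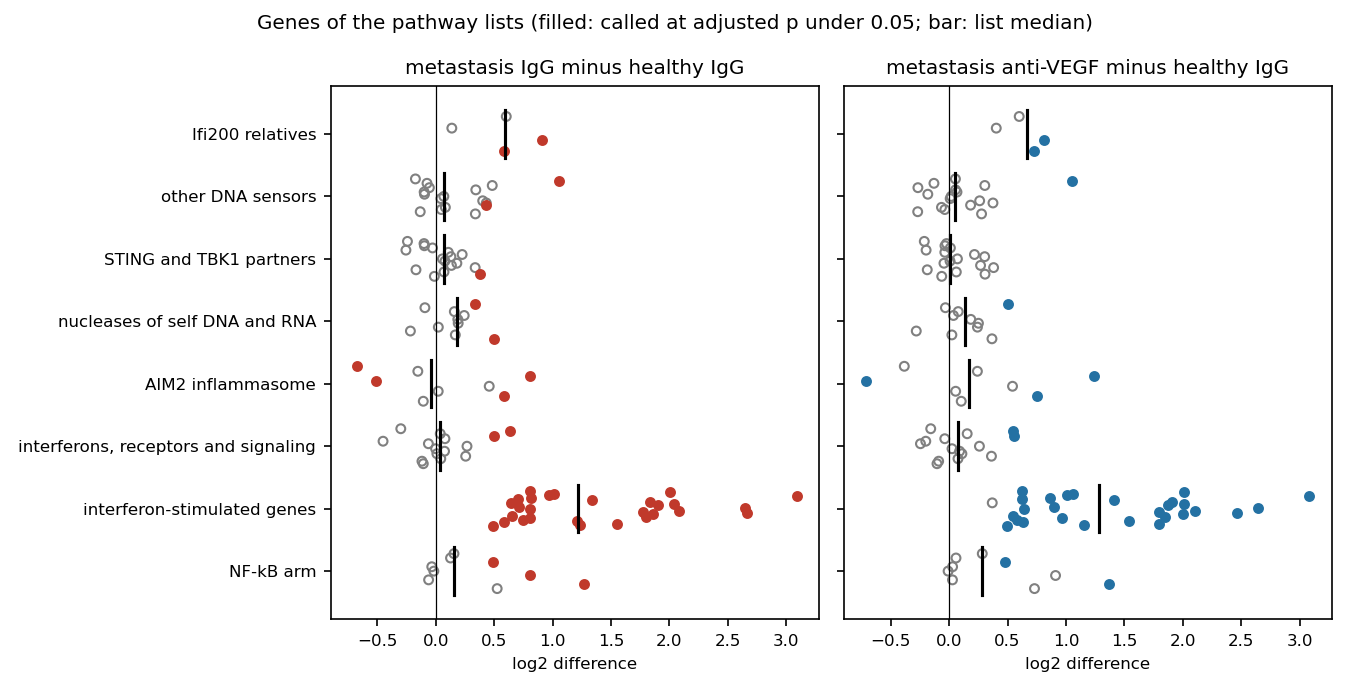
Log2 difference from healthy IgG of each gene in the 8 pathway lists, metastasis IgG on the left and metastasis anti-VEGF on the right; filled points passed adjusted p under 0.05 and the vertical bar is the list median. The interferon-stimulated genes are filled nearly throughout (28 of 28 and 27 of 28), while the DNA sensors and the STING and TBK1 partners gather around 0.

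Between anti-VEGF and IgG in metastatic lungs, limma called no gene of any of the 8 lists, as for all genes. By smallest p, Il1b was 0.43 ± 0.12 log2 units higher with anti-VEGF (limma adjusted p = 0.433) and Nlrp3, an inflammasome sensor, 0.40 ± 0.11 (limma adjusted p = 0.437). Nlrp3 was below the mark for dim signal, with means of 6.88 with IgG and 7.27 with anti-VEGF. Dhx58, an RNA helicase induced by interferon, was 0.34 ± 0.11 higher (limma adjusted p = 0.491), although its probe sets ran from -0.12 to 0.34. In the 8 lists, 8 of 108 genes had an unadjusted p under 0.05, beside 8.04% of all genes.

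Markers of macrophages, which express many of the same sensors and interferon-stimulated genes, were mostly higher in metastatic lungs. Ifi202b, Ifi204 and Sting1 were higher there too, whereas the dim probe sets of Ifi203 and Aim2 and the representative probe set of Tbk1 stayed level. Of 19 macrophage markers, 12 passed as higher with IgG and 12 with anti-VEGF against healthy lungs, and none between the metastatic groups. Their mean log2 level was 8.15 to 8.59 in healthy IgG, 9.21 to 9.42 in metastasis IgG and 9.21 to 9.62 in metastasis anti-VEGF arrays. C1qa, a complement gene of tissue macrophages, went from 7.07 to 7.48 in healthy IgG to 9.83 to 10.21 in metastasis IgG and 9.56 to 10.49 in metastasis anti-VEGF arrays. Ptprc, which encodes the CD45 used for depletion in the sort, was 8.24 to 9.24 in healthy IgG, 9.25 to 9.33 in metastasis IgG and 9.35 to 9.51 in metastasis anti-VEGF arrays. Itgam, which encodes the CD11b used likewise, lay below the mark for dim signal in all 9 arrays.

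Within the metastatic groups, the representative probe set of Sting1 peaked in the arrays highest for macrophage markers, and Ifi204 and Ifi202b did not. The highest macrophage mean was in replicate 1 of metastasis IgG (9.42), where Ifi204 (8.28) and Ifi202b (11.60) were lowest in their group and Sting1 (10.21) was highest. With anti-VEGF it was in replicate 2 (9.62), where Ifi204 (8.45) and Ifi202b (11.80) were intermediate and Sting1 (10.35) was highest. The second Sting1 probe set was highest in other arrays, replicate 2 of metastasis IgG (10.21) and replicate 3 of metastasis anti-VEGF (10.18). The orders given here rest on 3 arrays per group, and some steps are small. The representative Sting1 probe set gave 10.21, 10.16 and 9.96 in metastasis IgG. The part of macrophage RNA in the differences from healthy lungs was not tested.

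Markers of other cell types gave mixed counts. Fibroblast and pericyte markers passed as higher in 3 of 5 cases with IgG and 2 of 5 with anti-VEGF, and neutrophil markers in 1 of 3 and 3 of 3. Their mean levels were 8.46 to 9.37, 9.22 to 9.81 and 9.20 to 9.67 for fibroblasts and pericytes, and 7.53 to 7.87, 8.02 to 8.40 and 8.40 to 8.62 for neutrophils, in healthy IgG, metastasis IgG and metastasis anti-VEGF arrays. None of 6 dendritic, 5 lymphoid or 4 epithelial markers passed in either comparison, and all 5 lymphoid markers were below the mark for dim signal in every array. The epithelial mean spread most among healthy IgG arrays (8.97 to 10.36), beside 9.73 to 10.31 in metastasis IgG and 9.66 to 10.32 in metastasis anti-VEGF arrays. Of the 15 endothelial markers, Emcn passed as higher with IgG, and with anti-VEGF Emcn passed as higher and Eng as lower. The part of these cells was not tested.

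**Figure D4:**
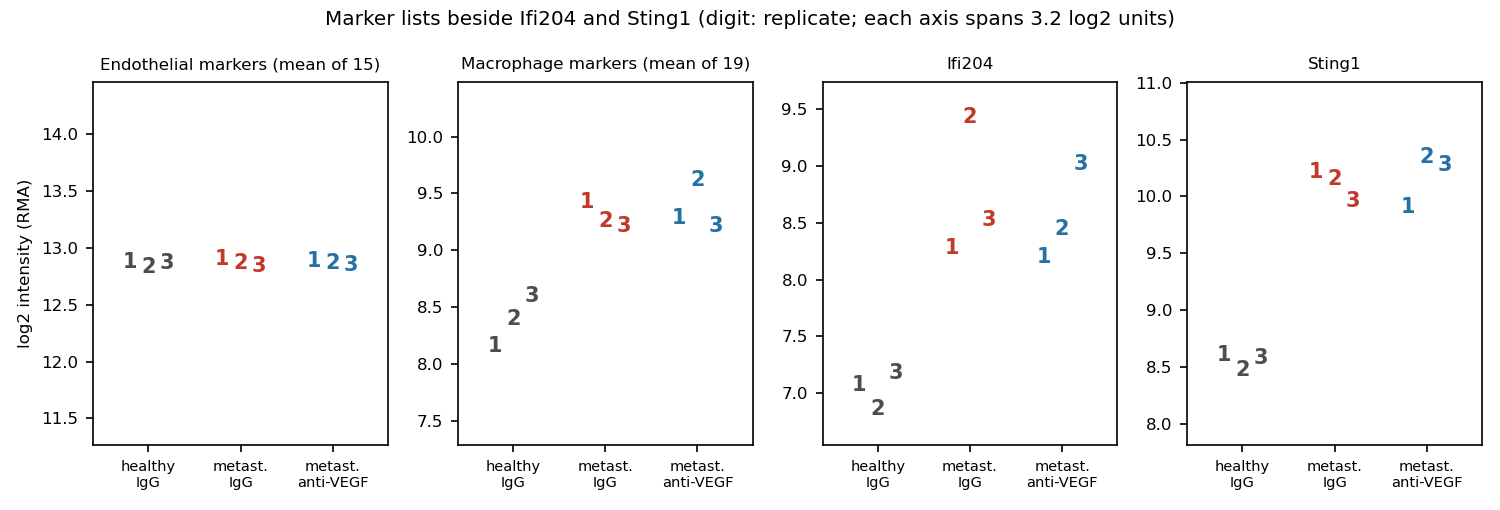
Mean log2 intensity of 15 endothelial and 19 macrophage markers beside Ifi204 and Sting1 in each array, with digits for the replicate and every axis spanning the same number of log2 units. Endothelial markers stay level at 12.8 to 12.9, macrophage markers are at 8.15 to 8.59 in healthy and 9.21 to 9.62 in metastatic arrays, and the array that is highest for macrophage markers in each metastatic group is not the one that is highest for Ifi204 but is the one that is highest for the Sting1 probe set drawn (the second Sting1 probe set is highest in other arrays).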

How the data were processed

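RNA of sorted lung ECs from 9 samples was amplified and labeled from 1 ng of total RNA and hybridized to Affymetrix Mouse Genome 430 2.0 arrays. Normalization was RMA, run by the authors in Chipster 3.8.0, and the deposited values are log2 intensities of 45101 probe sets, used as they are. RMA adjusts all arrays to 1 distribution, so values are relative, and the number of arrays limits the precision.

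Probe sets without a gene name here (9211), those listing several genes (932) and the 64 controls, some of them unnamed, were excluded. The remaining 34945 gave 18193 genes, each taken from its brightest probe set by the mean of 9 arrays. Each comparison was fitted on its 6 arrays with limma 3.58.1 (lmFit and eBayes, R 4.3.3), without a block, and genes passed at a Benjamini-Hochberg adjusted p under 0.05 over all genes. The scripts were tested on simulated data with known answers.

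The members, the lists and the tests were chosen with earlier results of these data known. Named were all members with every probe set, and from each list the genes that passed with the largest differences (at most 4 a comparison) or the 2 of smallest p where none passed. Added were the 5 genes most like Ifi202b, defining markers, and a few genes chosen after their values were seen (Mndal, Ifi213, Irf3, the interferon genes and Oas3). No member is in a list. Promoters came from RefSeq (GRCm38.p6), and those of Ifi204 and Sting1 and all protein sequences were not used here. Alternatives were other probe set choices, single probe sets, all 9 arrays in 1 fit, a replicate block, a filter on dim genes, 2 other normalizations, trend and robust settings, array weights, the study's thresholds, and each array left out. Plots were made with matplotlib 3.10.9 (Python 3.11.15).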

Additional observations from a re-analysis of the deposited data

How the results depend on the processing

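Ifi202b, Ifi204 and Sting1 stayed past the threshold against healthy IgG, with either treatment, under every alternative that measured them. Those fits reuse the arrays on which Ifi202b was known to rise, so they describe the dependence on processing and add no test. The number of members that passed was 3 in both comparisons and ran from 2 to 4 over the alternatives. It was 2 where probe sets of shared sequence were left out, since Ifi202b then had none. Cgas made the fourth wherever 4 passed. It passed in 5 of 15 alternatives with IgG (among them without healthy IgG array 3) and in 2 of 15 with anti-VEGF. These included the filter on dim genes in both comparisons, where 3 members passed without Ifi204. A filter on dim genes removed Ifi203 and Aim2 from every comparison and Ifi204 from those with healthy IgG. Between anti-VEGF and IgG no member passed under any alternative. Differences there that changed sign were those of Sting1 (-0.015 with the mean of its probe sets and -0.10 without probe sets of shared sequence) and Dhx58 (-0.12 without probe sets of shared sequence). With 1 array left out, the difference of anti-VEGF minus IgG ran from -0.12 to 0.22 for Ifi202b, -0.13 to 0.047 for Ifi203, -0.42 to 0.15 for Ifi204, -0.043 to 0.15 for Aim2, -0.017 to 0.21 for Sting1 and -0.10 to 0.15 for Tbk1. Against healthy IgG with anti-VEGF, Ifi203 gave 0.0048 with array weights and -0.11 to 0.082 with 1 array left out. None of these had passed.

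Genes that passed over the whole array numbered 1640 with IgG and 1172 with anti-VEGF against healthy IgG. They were 507 and 430 at the study's thresholds, 2591 and 1891 as single probe sets, 2219 and 1848 with trend and robust settings, and 869 to 1478 and 645 to 1139 with 1 array left out. Between the metastatic groups none passed in any fit. With the replicate number as a block, the members that passed were 3, 0 and 3 as before (IgG against healthy, anti-VEGF against IgG, anti-VEGF against healthy), and all genes 1176, 0 and 841. Of the genes named from the lists, the block ended the calls of Dtx4, Adar, Samhd1, Il1b, Il1a and Il6 with IgG. Same-numbered arrays did not deviate together (correlations of -0.08 to 0.01), which gave no sign of a pairing by number but cannot exclude one. The causes of these changes were not tested.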
